A study of Mus musculus with 6 samples.

Results

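The 9 genes described here are transcripts that mark injured or dedifferentiated kidney tubule epithelium: Lcn2, Spp1, Clu, Havcr1, Vcam1, Cd44, Prom1, Cd24a and Sox9. They were chosen by symbol, with earlier results of these data known, from the 24422 genes in the deposited tables. All 9 were found there, and all 9 passed the filter on low counts. Reads were counted per gene in whole mouse kidneys of postnatal day 13 (P13). There were 3 Control kidneys, labelled as wild type C57BL/6 mice, and 3 TfR1 knockout kidneys from C57BL/6 mice, in which floxed alleles of the transferrin receptor gene Tfrc (TfR1) met the Six2Cre recombinase. Both groups were fed an iron sufficient diet of 220 ppm iron. Six2Cre is active in the progenitors of the nephron and not in the collecting duct lineage, and the study describes nephron cells that escaped the deletion. Cre and floxed alleles are named in the labels of the knockout group alone, so the deletion cannot be told apart from the presence of the transgene. The labels give 3 biological replicates a group. The p-values weigh the difference between the groups against the spread within them over these 6 libraries.

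When a tubule is damaged, surviving epithelial cells lose features of the mature segment, turn on developmental and adhesion genes, and either redifferentiate or persist in a failed-repair state. Lcn2 and Havcr1 encode widely used biomarkers of acute tubule damage. Sox9, Prom1, Cd24a and Cd44 are associated with epithelial cells that proliferate or regain progenitor features after injury, and Vcam1 is used as a marker of tubule cells that fail to recover.

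In TfR1 knockout kidneys 5 of the 9 markers rose at least 2-fold. These were Lcn2 (7.15-fold), Sox9 (6.40-fold), Havcr1 (5.87-fold), Spp1 (3.46-fold) and Clu (3.32-fold). A gene was called when its adjusted p was under 0.05 and its fold change at least 2 (DESeq2 Wald test, 16509 genes tested), and by this rule 4.41% of all genes tested were called higher. Cd24a was higher by 1.38-fold, short of that fold. The differences of Vcam1, Cd44 and Prom1 did not pass the test, and 0 of the 9 markers were called lower, against 4.46% of all genes tested. The groups did not overlap, with the knockout higher, for 6 of the 9 markers, against 16.9% of all genes tested. An adjusted p under 0.05 in either direction, whatever the fold, was found for 6 markers and for 14.9% of all genes tested. edgeR's quasi-likelihood test called 4 markers higher, against 2.48% of the genes it tested, and 0 lower, against 2.31%. The call it did not make was that of Havcr1.

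Tfrc itself had 5534.2, 6485.2 and 3667.3 normalized counts in the Control libraries and 6976.0, 4045.5 and 5898.0 in the TfR1 knockout libraries. The groups overlapped (log2 fold change 0.11, SE 0.29, DESeq2 adjusted p 0.853), so whole-gene counts of Tfrc do not check the group labels. Its sign turned without Control replicate 3 (-0.09) or without TfR1 knockout replicate 1 (-0.07). All 8 markers that define kidney tissue, a list with segment markers such as Umod, Slc12a3 and Aqp2, were detected in every group. Total counts ran from 16591156 to 22898008 per library. Normalized counts are counts divided by the size factor of the library. The data are from bulk tissue, in which fewer cells of a type and less RNA per cell cannot be told apart.

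Upstream sequences are shown for 3 of the markers that rose, and for 1 that was not called, as the stretch of DNA that was searched for motifs. Of the 9 markers, 5 are in the RefSeq promoter table used here (Lcn2, Spp1, Havcr1, Cd44 and Prom1), with 9 promoters between them. The 250 bases before each transcription start were placed on the mouse genome NCBIM37 (mm9) by exact match, and each matched once. The windows printed are Lcn2 at chr2:32243260-32243509 (minus strand), the first Spp1 promoter at chr5:104863880-104864129 (plus strand), the first Havcr1 promoter at chr11:46553475-46553724 (plus strand), and, for a marker that was not called, the first Prom1 promoter at chr5:44492976-44493225 (minus strand). All are written 5′ to 3′ on the strand of the gene and end at the base before the start. These starts are those of RefSeq, while the gene spans given below are from another annotation (GENCODE). The printed Havcr1 and Prom1 windows lie inside those spans, and the Lcn2 window overlaps the end of its span. Capitals mark a match to the AP-1 motif.
Lcn2: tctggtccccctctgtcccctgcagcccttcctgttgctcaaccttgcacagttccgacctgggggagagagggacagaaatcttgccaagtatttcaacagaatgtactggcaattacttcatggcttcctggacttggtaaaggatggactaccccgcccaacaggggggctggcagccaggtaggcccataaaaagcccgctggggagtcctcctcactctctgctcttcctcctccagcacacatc
Spp1: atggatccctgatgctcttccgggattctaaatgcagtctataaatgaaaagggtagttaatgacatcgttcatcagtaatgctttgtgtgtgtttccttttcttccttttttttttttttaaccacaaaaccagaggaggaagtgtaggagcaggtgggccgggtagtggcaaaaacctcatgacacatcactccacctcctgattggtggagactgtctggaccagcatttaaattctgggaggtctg
Havcr1: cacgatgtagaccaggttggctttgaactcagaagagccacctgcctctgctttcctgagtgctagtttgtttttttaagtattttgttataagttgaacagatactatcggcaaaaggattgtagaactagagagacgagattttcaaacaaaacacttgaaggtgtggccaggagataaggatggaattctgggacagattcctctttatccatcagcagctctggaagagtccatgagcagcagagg
Prom1: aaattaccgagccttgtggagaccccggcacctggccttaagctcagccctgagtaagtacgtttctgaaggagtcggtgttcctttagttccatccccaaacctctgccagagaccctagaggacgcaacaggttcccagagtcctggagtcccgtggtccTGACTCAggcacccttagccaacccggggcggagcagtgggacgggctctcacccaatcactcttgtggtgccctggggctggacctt

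The windows were searched on both strands for motifs of 3 factor families that act in injured epithelium. They were the STAT motif TTCNNNGAA, the AP-1 motif TGANTCA, the short NF-kB motif GGGANTTCC and a longer NF-kB motif. Over 32536 distinct promoter windows of the same length, these were present in 7.04%, 6.73%, 1.44% and 0.36%, respectively. No match was found in the windows of Lcn2, Spp1, Havcr1 or Cd44. Both Prom1 windows held an AP-1 match. It was TGACTCA from 88 to 82 bases before the start in the window shown, and TGAATCA from 189 to 183 bases before the start in the other (chr5:44486008-44486257). A match is a description of these letters and not evidence of a bound factor.

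Lcn2 encodes lipocalin, a secreted protein that carries iron-binding siderophores and that injured distal tubule and collecting duct cells release into urine. The gene lies at chr2:32240153-32243317 (minus strand). Listed from replicate 1 to replicate 3, here and for the other genes, Control libraries had 283.6, 284.5 and 465.0 normalized counts and knockout libraries had 2102.2, 3459.5 and 1817.2. All knockout libraries lay far above all Control libraries, with replicate 2 the highest. The means were 344.4 ± 104.5 and 2459.6 ± 877.6 (SD, n = 3 each). The log2 fold change was 2.84 (SE 0.32, 95% interval of the fold 4.60 to 11.1, DESeq2 adjusted p 5.05e-16, edgeR adjusted p 0.00505). It was between 2.51 and 3.11 when each library was left out in turn.

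Neutrophils also make lipocalin. The summed level of 10 neutrophil markers ran from 150.1 to 502.7 normalized counts in the Control libraries and from 308.3 to 1090.1 in the knockout libraries. This sum overlapped between groups and, like Lcn2, was highest in Control replicate 3 among Controls and in replicate 2 among knockouts. Knockout replicate 1 went the other way. There the sum was 308.3, the lowest of the knockouts and below Control replicate 3 (502.7). Lcn2 in that library was 2102.2, above knockout replicate 3 (1817.2) and every Control library. DESeq2 called 3 of the 8 neutrophil markers tested higher (S100a8, S100a9 and Retnlg), with overlapping libraries for each, and edgeR called 0. The 3 DESeq2 calls were lost without Control replicate 1 or 2, or without TfR1 knockout replicate 2 or 3, and the number was 5 without Control replicate 3. The neutrophil genes Ly6g and Elane, at no more than 5.97 and 3.84 normalized counts in any library, were too low to test. The part of neutrophil RNA in the Lcn2 difference was not tested.

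Spp1 encodes osteopontin, a secreted phosphoprotein of the tubule that binds integrins and the receptor encoded by Cd44. It lies at chr5:104864137-104870069 (plus strand). The Control libraries had 31335.0, 34058.6 and 28114.7 normalized counts, and the TfR1 knockout libraries had 129736.6, 113333.4 and 80904.0. The lowest knockout library was still above the highest Control library. The group means were 31169.4 ± 2975.4 and 107991.3 ± 24850.8 (SD, n = 3 each), a log2 fold change of 1.79 (SE 0.22, 95% interval of the fold 2.56 to 4.69, DESeq2 adjusted p 1.28e-13, edgeR adjusted p 0.0175). Leaving out each library gave 1.64 to 1.97. Spp1 was the most abundant of the 9 markers.

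Clu encodes clusterin, a secreted chaperone that damaged tubules produce. The gene is at chr14:66587320-66600385 (plus strand). Control libraries had 4225.7, 4488.3 and 2409.0 normalized counts against 19220.5, 9325.6 and 8348.1 in TfR1 knockout libraries. The groups did not overlap, and knockout replicate 1 stood well above the other knockouts. Means were 3707.7 ± 1132.3 and 12298.1 ± 6014.9 (SD, n = 3 each). The log2 fold change of 1.73 (SE 0.38, 95% interval of the fold 1.99 to 5.53) had a DESeq2 adjusted p of 0.000121 and an edgeR adjusted p of 0.0458. Without TfR1 knockout replicate 1 it was 1.25, and the call was kept.

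Havcr1 encodes the kidney injury molecule, a membrane receptor with which proximal tubule cells take up apoptotic debris and which is barely made in a healthy tubule. It is at chr11:46548582-46593080 (plus strand). Normalized counts were 8.25, 12.7 and 9.69 in Control libraries, and 107.4, 21.7 and 50.1 in TfR1 knockout libraries, from 10, 14 and 9 reads and from 108, 17 and 53 reads. Every knockout library was higher than every Control library, but the knockouts differed 4.94-fold among themselves, the widest ratio of the 9 markers. From means of 10.2 ± 2.29 and 59.8 ± 43.6 (SD, n = 3 each), the log2 fold change was 2.55 (SE 0.66, 95% interval of the fold 2.39 to 14.4, DESeq2 adjusted p 0.00193). The call was not made by edgeR (adjusted p 0.0560) or limma-voom (adjusted p 0.0872). Without TfR1 knockout replicate 1 the log2 fold change was 1.83 and the DESeq2 adjusted p 0.0459.

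Sox9 encodes a transcription factor of the branching ureteric epithelium and the early nephron that is switched on again in tubule cells after injury. The gene is at chr11:112643538-112649074 (plus strand). It had 84.1, 70.0 and 44.1 normalized counts in the Control libraries and 534.0, 291.7 and 446.5 in the TfR1 knockout libraries. The groups were well apart, and the lowest of the knockouts, replicate 2, exceeded every Control library. The means were 66.1 ± 20.3 and 424.1 ± 122.7 (SD, n = 3 each), with a log2 fold change of 2.68 (SE 0.34, 95% interval of the fold 4.01 to 10.2, DESeq2 adjusted p 8.73e-13, edgeR adjusted p 0.00820). Leaving out each library gave 2.46 to 2.89.

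**Figure D1:**
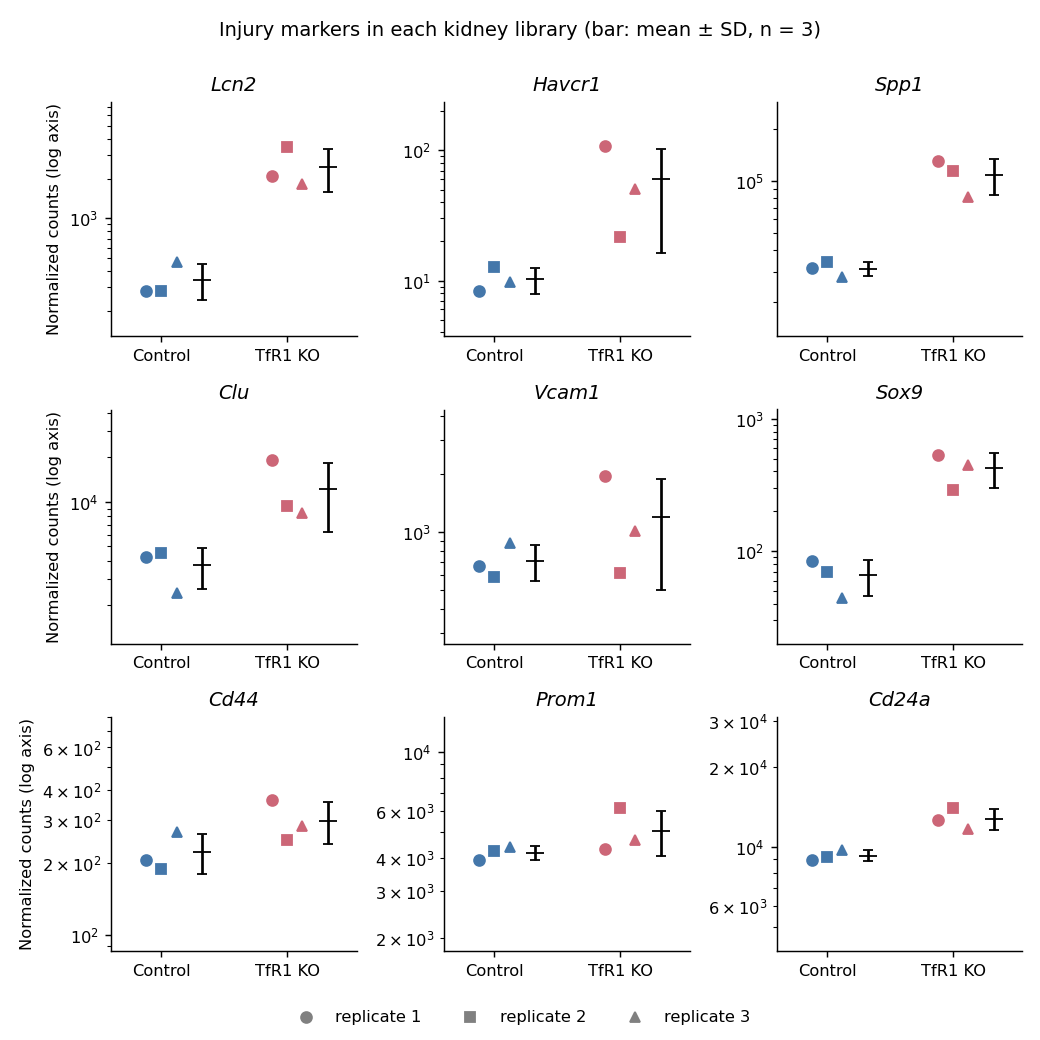
Normalized counts (log axis) of each of the 9 markers in the 3 Control and 3 TfR1 knockout (KO) libraries, with the replicate number shown by the shape and the mean ± SD beside each group. The groups are apart for Lcn2, Havcr1, Spp1, Clu, Sox9 and Cd24a, and overlap for Vcam1, Cd44 and Prom1.

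Vcam1 encodes an adhesion molecule of activated endothelium that failed-repair tubule cells and some macrophages also carry. It lies at chr3:115812938-115832606 (minus strand). The normalized counts were 664.6, 583.5 and 878.4 in Control libraries, and 1953.1, 612.8 and 1010.3 in TfR1 knockout libraries. Knockout replicate 1 stood high and replicate 2 lay within the Control range, so the groups overlapped. The log2 fold change was 0.75 (SE 0.40, 95% interval of the fold 0.972 to 2.91) and did not pass the test (DESeq2 adjusted p 0.212, edgeR adjusted p 0.282). It turned on single libraries: without TfR1 knockout replicate 2 it was 1.07 and would be called (DESeq2 adjusted p 0.0189), and without TfR1 knockout replicate 1 it was 0.20. The summed level of 10 endothelial markers ran from 23815.8 to 37628.1 normalized counts in Control libraries and from 25725.2 to 31402.0 in knockout libraries, with 0 of 10 called.

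Cd44 encodes a receptor for hyaluronan and osteopontin that appears on regenerating tubules and on leukocytes. The gene spans chr2:102651298-102741822 (minus strand). Control libraries had 205.3, 189.1 and 269.1 normalized counts and TfR1 knockout libraries had 364.0, 248.2 and 282.8. Control replicate 3 was above knockout replicate 2, and the log2 fold change of 0.44 (SE 0.26, 95% interval of the fold 0.952 to 1.92) did not pass the test (DESeq2 adjusted p 0.269, edgeR adjusted p 0.298). Leaving out each library gave 0.27 to 0.60.

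Prom1 encodes prominin, a membrane glycoprotein used to isolate scattered tubule cells with progenitor features. It spans chr5:44384864-44493271 (minus strand). Normalized counts were 3923.9, 4231.1 and 4405.7 in Control libraries, and 4301.0, 6130.9 and 4679.7 in TfR1 knockout libraries. Only knockout replicates 2 and 3 lay above the Control range. The log2 fold change was 0.27 (SE 0.19, 95% interval of the fold 0.926 to 1.56, DESeq2 adjusted p 0.384, edgeR adjusted p 0.370). The annotated gene Gm16401 overlaps Prom1 on the other strand, and the strand setting of the counting is not given in the sources used here, so reads from this overlap are uncertain.

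Cd24a encodes a small surface glycoprotein of developing and regenerating epithelium. It is at chr10:43298975-43304068 (plus strand), and since related copies of it exist in the genome, its count from uniquely aligned reads is uncertain. The Control libraries had 8914.7, 9167.5 and 9771.6 normalized counts and the TfR1 knockout libraries had 12652.3, 14061.9 and 11755.4. The groups did not overlap, and both were tight. From means of 9284.6 ± 440.3 and 12823.2 ± 1162.7 (SD, n = 3 each), the log2 fold change was 0.47 (SE 0.14, 95% interval of the fold 1.14 to 1.68, DESeq2 adjusted p 0.0127). This adjusted p was not under 0.05 with edgeR (0.129), nor in DESeq2 without Control replicate 1 (0.210) or without Control replicate 2 (0.172).

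**Figure D2:**
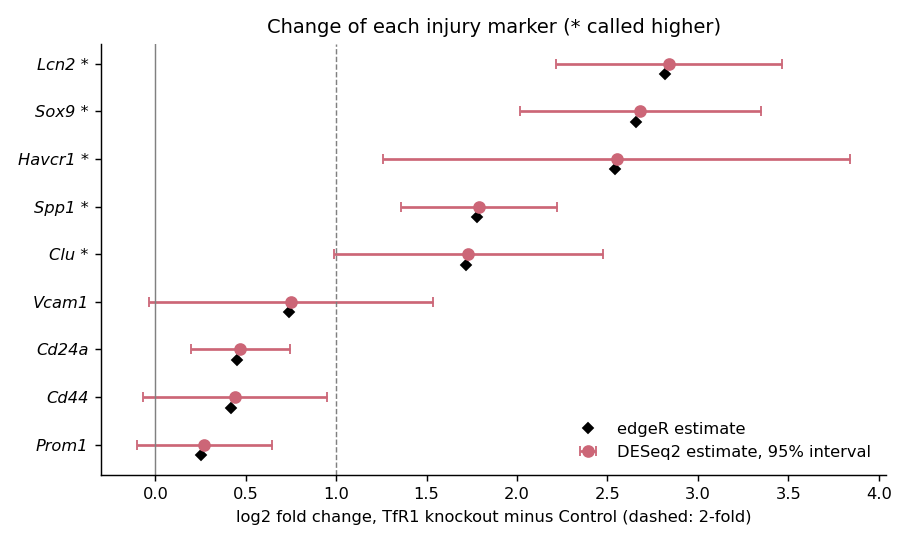
The log2 fold change (TfR1 knockout minus Control) of each marker, with the DESeq2 estimate and its 95% interval as a circle and bar and the edgeR estimate as a diamond. The 5 markers with an asterisk were called higher. The intervals of Vcam1, Cd44 and Prom1 include 0, and that of Cd24a lies above 0 and below the dashed line at 2-fold.

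The 3 knockout kidneys did not rank alike for all markers. TfR1 knockout replicate 1 was the highest knockout for 6 markers (Havcr1, Spp1, Clu, Vcam1, Sox9 and Cd44), and replicate 2 for the other 3 (Lcn2, Prom1 and Cd24a). Against the Control mean, replicate 1 was 10.5-fold for Havcr1 and 8.08-fold for Sox9, where replicate 2 was 2.13-fold and 4.41-fold. For Lcn2 the order of these kidneys was the other way, at 6.10-fold in replicate 1 and more in replicate 2, and 5.28-fold in replicate 3. Replicate 2 had the highest Lcn2 and the lowest Havcr1 of the knockouts. The ratio of the highest to the lowest knockout library was 1.20 for Cd24a, 1.60 for Spp1, 1.83 for Sox9, 1.90 for Lcn2, 2.30 for Clu and 3.19 for Vcam1. With 3 kidneys no order between them was tested.

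**Figure D3:**
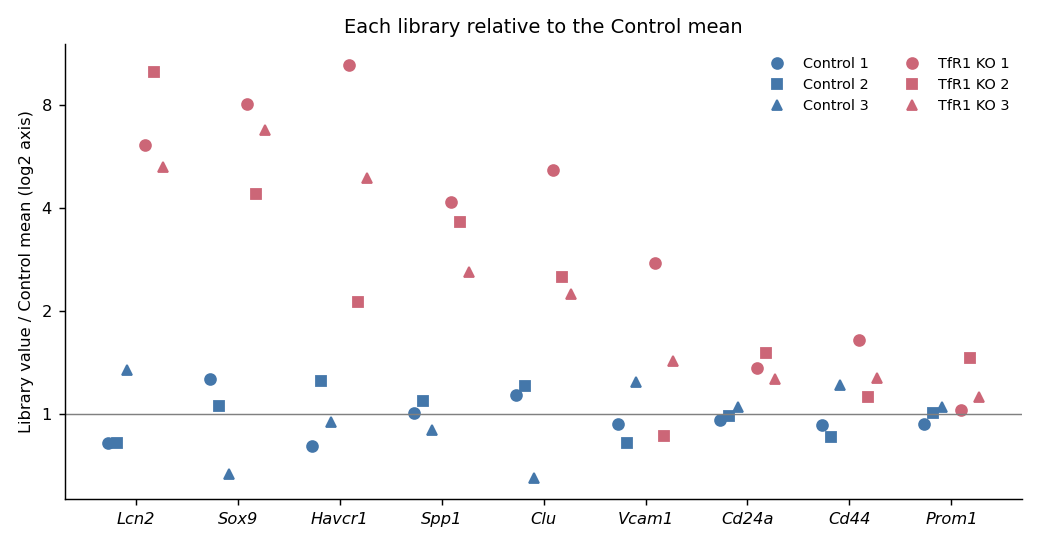
Each library's normalized count divided by the Control mean of the same gene (log2 axis, line at 1). Symbols of TfR1 knockout (KO) replicate 1 lie highest for 6 markers, while replicate 2 leads for Lcn2, Prom1 and Cd24a and falls under the line for Vcam1.

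Levels of different genes were compared per length, as TPM (transcript abundance per length, scaled to the same total in every library), computed here from counts and the merged exon length. Spp1 had by far the highest level of the 9 markers, with 2882.3 ± 166.8 TPM in Control and 9552.0 ± 2144.3 TPM in TfR1 knockout kidneys (SD, n = 3 each). It ranked 18, 16 and 33 among the 20791 genes with a length in the Control libraries, and second in every knockout library. Cd24a followed at 783.0 ± 63.7 and 1031.4 ± 26.5 TPM. Clu (163.5 ± 45.2 TPM) and Prom1 (141.7 ± 11.9 TPM) overlapped in Control kidneys, whereas in knockout kidneys Clu stood at 528.5 ± 277.3 TPM, above Prom1 at 161.7 ± 16.0 TPM in every library.

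Lcn2 went from a level like that of Vcam1 to one like that of Prom1. It had 23.0 ± 7.88 TPM in Control kidneys, where Vcam1 had 22.1 ± 5.63 TPM, and 152.9 ± 36.9 TPM in knockout kidneys. Its rank among all genes moved from 7529, 7534 and 5408 to 1329, 846 and 1525. The 3 lowest in Control kidneys were Cd44 (4.95 ± 1.14 TPM), Sox9 (2.43 ± 0.70 TPM) and Havcr1 (0.673 ± 0.135 TPM). In knockout kidneys Sox9 had 15.3 ± 5.46 TPM and passed Cd44 (6.44 ± 1.68 TPM), and overlapped with Vcam1 (36.4 ± 22.3 TPM). Havcr1, at 3.91 ± 2.94 TPM, overlapped with Cd44 there. Havcr1 had a large fold change at a low level, and Spp1 a smaller fold change at a very high level.

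**Figure D4:**
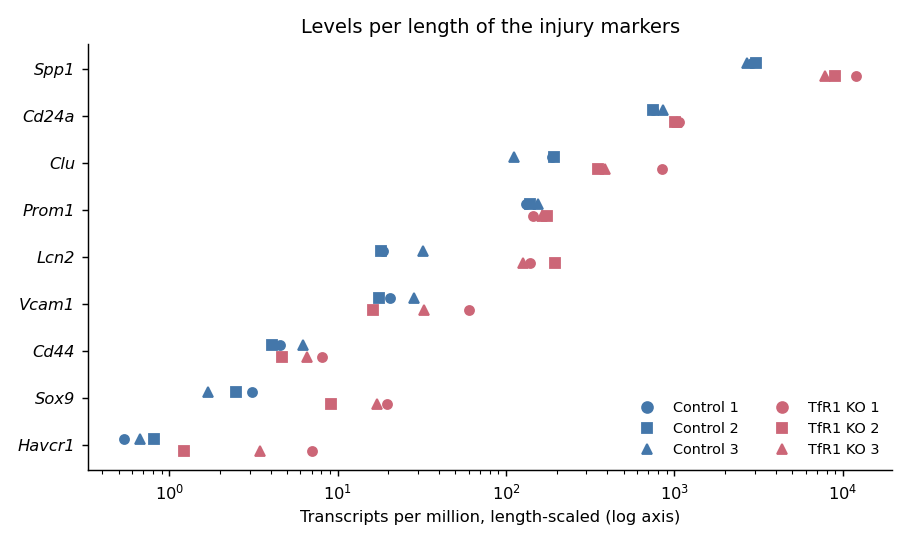
TPM (length-scaled transcript abundance, log axis) of each marker in every library, ordered from the highest (Spp1) to the lowest (Havcr1) Control mean. TfR1 knockout (KO) symbols are drawn under the Control symbols of the same gene. The mean of Sox9 lies below that of Cd44 in Control and above it in knockout kidneys.

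A wider list of 31 other genes of tubule injury and repair was read from the same fit. Of the 30 tested, 12 were called higher and 1 lower (Itgb6, an integrin chain, log2 fold change -1.29), and the median log2 fold change was 0.85 against 0.007 over all genes tested. edgeR called 10 higher and 1 lower. Krt20, a keratin of mature surface epithelia, went from 20.6, 48.2 and 40.9 normalized counts in Control to 294.4, 1051.7 and 717.0 in knockout libraries (log2 fold change 4.24). Like Lcn2, it was highest in TfR1 knockout replicate 2. Krt19, a keratin of simple and ductal epithelia, had 534.3, 663.5 and 933.2 against 2871.9, 3107.7 and 2481.2 (1.99 on the log2 scale).

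The other named genes of this list were highest in TfR1 knockout replicate 1, as Havcr1 and Clu were. Gdf15, a secreted stress cytokine, had 164.1, 117.3 and 77.5 normalized counts in Control and 2323.0, 684.5 and 623.4 in knockout libraries (log2 fold change 3.34, or 2.45 without TfR1 knockout replicate 1). Cyr61, a matrix protein made soon after tubule damage, had 1055.4, 673.5 and 577.0 against 7647.2, 1880.7 and 3396.9 (2.49, or 1.78 without the same library). The intermediate filament gene Vim (-0.41) and the progenitor factors Sox4 (-0.25) and Pax2 (-0.11) did not pass the test. These 3 genes were picked here after their values were seen.

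Of 21 NF-kB target genes, all tested, 10 were called higher and 0 lower, with a median log2 fold change of 1.06. NF-kB is a transcription factor of inflammation whose targets include its own inhibitors. Nfkbiz, a nuclear cofactor that acts on Lcn2 transcription, had 316.6, 352.7 and 396.1 normalized counts in Control and 1661.7, 1146.3 and 792.7 in knockout libraries (log2 fold change 1.76). The inhibitors Nfkbia and Tnfaip3 (1.16 and 1.12) and the adhesion gene Icam1 (1.06) also rose, but Nfkbia was at 0.81 without TfR1 knockout replicate 2 and Icam1 at 0.91 without Control replicate 1, under the 2-fold limit. edgeR called 6 of the 21 higher. Whatever the fold, 13 of the 21 were higher and 1 lower at an adjusted p under 0.05 (DESeq2). Among those short of 2-fold, Birc3 (0.99), Relb (0.88) and Nfkb2 (0.74) were higher and Tnfaip2 (-0.75) was lower, named here after their values were seen.

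Receptors and binding partners of the marker proteins did not move one way. Of 34 genes, 3 were called higher and 4 lower, with a median log2 fold change of -0.13. The lower genes included Lrp2, the endocytic receptor megalin that takes up lipocalin in the proximal tubule, with 25255.8, 26254.5 and 12909.4 normalized counts in Control and 10851.3, 6311.3 and 5936.8 in knockout libraries (log2 fold change -1.48). They also included Itga8, an integrin chain that binds osteopontin (-1.98, or -1.38 without Control replicate 3), and Vcan, a proteoglycan that binds hyaluronan (-1.36). Itgb3, an integrin chain of osteopontin receptors, was higher (1.14). With edgeR 0 genes of this list were called higher and 1 lower. That gene was Itga8 (edgeR adjusted p 0.0384), while Lrp2 was not called (edgeR adjusted p 0.0537). Lrp2 is also on the proximal tubule and kidney defining lists, so its call is counted in each of them. In DESeq2 the number higher was 0 without Control replicate 2 or 3 and 1 without TfR1 knockout replicate 1 or 2.

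Proximal tubule differentiation genes split. Among 20 genes, 2 were called higher and 3 lower, with a median log2 fold change of -0.28 (2 and 2 with edgeR). The summed level was 374498.6, 408662.0 and 174968.3 normalized counts in Control and 242304.2, 361106.6 and 206146.8 in knockout libraries. Control replicate 3 was thus below every knockout library in this sum, and the groups overlapped. Slc5a2, the glucose transporter of the early proximal tubule, fell from 5616.6, 4981.9 and 3018.3 normalized counts to 196.9, 115.1 and 78.5 (log2 fold change -5.12). Kap, an androgen-regulated protein of the proximal tubule, fell from 134549.8, 158796.7 and 46134.9 to 11841.8, 9916.7 and 5892.4 (-3.62). Pck1, an enzyme of gluconeogenesis, and Slc22a6, a transporter of organic anions, rose (2.12 and 1.79). The number called lower was 5 without Control replicate 3, TfR1 knockout replicate 1 or TfR1 knockout replicate 2, and the number higher was 4 without TfR1 knockout replicate 1.

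**Figure D5:**
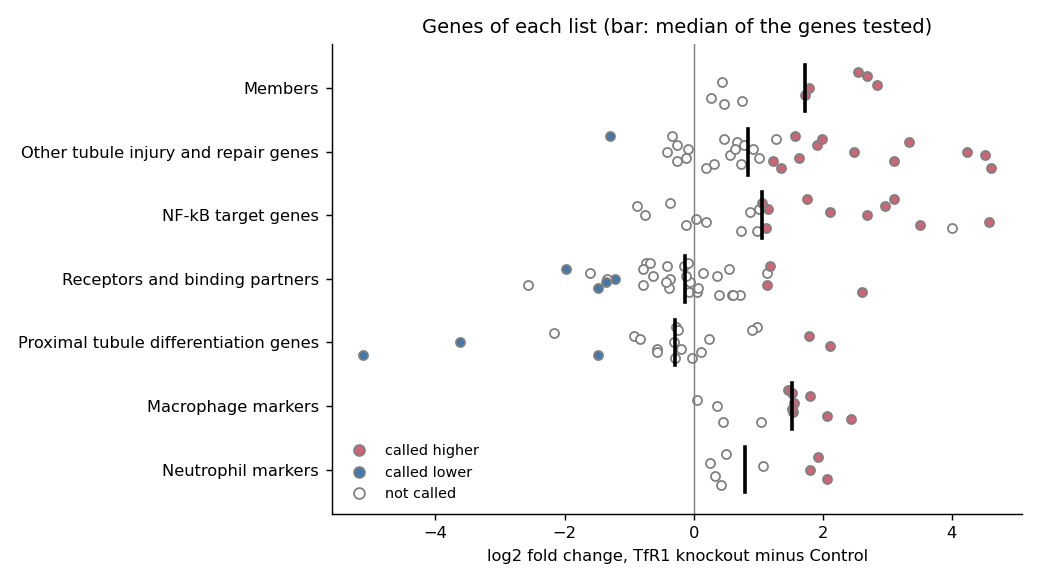
The log2 fold change (TfR1 knockout minus Control) of each gene tested in 7 lists, with a bar at the median of the list and filled circles for genes called higher or lower. The medians of the 9 markers (1.73), the macrophage markers (1.53) and the NF-kB targets (1.06) lie to the right of 0, while proximal tubule genes lie on both sides.

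Markers of other cell types were read beside the injury markers, since Spp1, Cd44, Vcam1 and Lcn2 are also made outside the tubule. The macrophage list moved with the group. Of 12 genes 8 were called higher and 0 lower (6 and 0 with edgeR), the median log2 fold change was 1.53, and the summed level was 3024.3 to 5144.2 normalized counts in Control and 7428.2 to 10561.0 in knockout libraries. The largest named changes were those of Itgam (2.44) and Cd163 (2.07, or 2.84 without Control replicate 3). The edgeR adjusted p was 0.0247 for Itgam and 0.0686 for Cd163, so edgeR did not call Cd163. No macrophage marker was at 0 in all libraries. The macrophage sum was highest in TfR1 knockout replicate 1, as Spp1, Clu, Vcam1, Cd44, Havcr1 and Sox9 were. It was lowest of the knockouts in replicate 2, as Vcam1, Cd44, Havcr1 and Sox9 were, but Spp1 and Clu were lowest in replicate 3. Among Controls the sum was highest in replicate 3, as Vcam1 and Cd44 were, but Spp1, Clu and Sox9 were lowest there. The part of macrophage RNA in the differences of these markers was not tested.

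The collecting duct list, a lineage in which Six2Cre is not active, had 2 of 7 genes called higher and 0 lower, and its summed level was 10026.8 to 19967.4 normalized counts in Control and 35873.4 to 64388.5 in knockout libraries. The list includes Aqp2, the water channel of the principal cell, which had 5746.9, 5580.8 and 2409.0 against 17805.4, 50719.4 and 23563.8 normalized counts. The knockout sums were 35873.4, 64388.5 and 37471.3, so the gap between the groups rests largely on Aqp2. The median log2 fold change of the list was 0.23. Scnn1b rose short of 2-fold (0.65, DESeq2 adjusted p 0.0301). Hsd11b2 (-0.34), Aqp4 (-0.17), Scnn1g (0.23) and Avpr2 (0.13) did not pass the test. Among knockouts Hsd11b2 and Scnn1g were lowest in replicate 2, while Aqp3 and Aqp4 were highest there. Aqp2 was highest in TfR1 knockout replicate 2, as Lcn2 and Krt20 were. Aqp2 and Krt20 were lowest of the knockouts in replicate 1, whereas Lcn2 was lowest in replicate 3. Among Controls Aqp2 was lowest in replicate 3, where Lcn2 was highest. The part of collecting duct RNA in the Lcn2 difference was not tested. The second call, Aqp3, was lost with edgeR and without Control replicate 3 or TfR1 knockout replicate 2 or 3. Of 6 urothelial markers 0 were called, or 1 higher without Control replicate 3.

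The remaining lists did not rise. Of 7 stromal markers 0 were called higher and 2 lower (Col3a1 and Lum), and edgeR called 0. The stromal sum was 67298.2 to 138432.8 normalized counts in Control, with Control replicate 3 the highest, and 36782.9 to 67229.1 in knockout libraries, and 0 of its genes were called lower without Control replicate 3. T cell markers had 0 of 7 called (sums of 85.4 to 130.2 and 56.3 to 93.5 normalized counts). B cell markers had 1 of 4 called lower (sums of 96.3 to 161.5 and 56.3 to 94.5), a call of Ms4a1 that edgeR did not make. Of the 8 kidney defining markers, 4 were called lower, among them Umod (-3.65) and Slc12a3 (-3.98) of the thick ascending limb and distal convoluted tubule, and 1 higher (Aqp2).

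The genes most like the 9 markers over the 6 libraries were ranked by Pearson r of their log2 normalized counts with the mean z-score of the markers. This mean was -0.84, -0.79 and -0.61 in the Control libraries and 1.10, 0.63 and 0.52 in the knockout libraries. Among the 12114 genes whose mean normalized count was 100 or more, the first 5 were Gsdmc2 (r 0.997), Rtn4 (r 0.997), Krt15 (r 0.996), Klf4 (r 0.995) and Samd5 (r 0.992). Krt15, a keratin of basal epithelial cells, had 61.8, 52.7 and 64.6 normalized counts in Control and 522.1, 342.9 and 286.6 in knockout libraries. Klf4, a transcription factor of epithelial differentiation, had 424.6, 415.4 and 540.4 against 1527.5, 1234.6 and 1058.5. These are the 2 with a role well known in epithelia. All 5 had TfR1 knockout replicate 1 highest, as the mean of the markers did, a trait that the ranking itself selects for. The log2 fold changes were 0.92 for Gsdmc2 and 0.46 for Rtn4, both short of 2-fold. They were 2.69 for Krt15, 1.47 for Klf4 and 2.45 for Samd5. The points share libraries and the split into groups, and the ranking is a description.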

How the data were processed

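Poly-A RNA from 6 whole kidneys (3 Control, 3 TfR1 knockout) was sequenced. Per the submitters' processing notes, the authors used CASAVA 1.8.2, Trimmomatic, TopHat2 2.0.11 (mm9) and HTSeq, and they deposited raw counts per gene with no normalization. They kept uniquely aligned reads, which undercounts genes that have near-identical copies. Total counts ran from 16591156 to 22898008 per library, so counting error matters mainly for low genes, and 3 libraries a group limit the precision.

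Counts were tested with DESeq2 1.42.0 in R 4.3.3 (Wald test, median-ratio size factors, Benjamini-Hochberg adjustment over all genes, independent filtering at 0.05, lowest mean tested 3.51, no covariate). A call needed an unshrunken fold of at least 2 and an adjusted p under 0.05. Fold intervals are 95% Wald intervals. The 9 markers and all lists were chosen with earlier results of these data known. Named genes are the markers, Tfrc, up to 4 called genes a list with the largest changes and an average normalized count of 100 or more, and the 5 genes most like the markers. Outside this rule, Itgb6, Vim, Sox4, Pax2, Birc3, Relb, Nfkb2, Tnfaip2, Retnlg, Ly6g, Elane and Ms4a1 were named after their values were seen. So were the collecting duct genes Aqp4, Hsd11b2, Scnn1b, Scnn1g and Avpr2.

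Alternatives were edgeR 4.0.16 (quasi-likelihood, TMM), limma-voom (limma 3.58.1), filters on counts, other size factors, a null of at most 2-fold, a replicate block and leaving out each library. The code was tested on simulated data. Positions and lengths are those of GENCODE for mm9, and promoters from RefSeq.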

Additional observations from a re-analysis of the deposited data

How the results depend on the processing

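Over all alternatives, 132 of 144 values for single markers kept their direction and their side of the threshold, 11 lost significance, 1 gained it and 0 reversed. Lcn2, Spp1 and Sox9 were called under every alternative. A test of the null that the fold is at most 2, stricter by construction, left 3 markers called higher and 3 with an adjusted p under 0.05, and 122 genes higher and 86 lower among all genes. edgeR called 380 genes higher and 353 lower, and limma-voom 365 and 372; the cause was not tested. Leaving out each library gave 5 to 6 markers called higher, 5 to 7 with an adjusted p under 0.05, and 498 to 1146 genes called lower, the most without TfR1 knockout replicate 1. Tfrc ranged from -0.09 to 0.30 (log2) in these fits. Under total-count size factors the median over all genes moved by -0.10 (log2), and Cd24a had an adjusted p of 0.0502.

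Same-numbered libraries did not deviate together (correlations -0.0378, 0.0548 and 0.0899), and were not treated as pairs. With the replicate number as a block, 5 markers were called higher and 0 lower, the adjusted p was under 0.05 for 5 (for Cd24a it was 0.107), and 658 genes were called higher and 750 lower. For other named genes, 481 of 544 values kept their side, 61 lost significance and 2, both of Tfrc, reversed. Havcr1, with 9 to 14 reads in Control libraries, is the marker that depth limits most.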
